A study of Bos taurus with 10 samples.

Results

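The genes followed here belong to Schwann cells, the glia that wrap peripheral axons, and to axons themselves. They are the myelin genes MBP, PRX and PMP22, the axonal neurofilament gene NEFM, the adhesion genes NCAM1 and L1CAM, the neurotrophin receptor gene NGFR and the transcription factor gene SOX10. They were taken by symbol from the deposited table, which lists all 8 among its 12674 genes, and all 8 passed the filter on low counts. NEFM, without a count in subcutaneous fat, passed it through the intramuscular libraries alone. RNA had been sequenced from intramuscular fat, the marbling between muscle fibres, and from subcutaneous fat, with 5 libraries for each depot. All animals were untreated adult female cattle (heifers) of an Angus cross, and the labels give no genotype, exact age or pooling. Libraries of the 2 depots with equal replicate numbers were treated as 1 animal in paired differences and in fits with the animal as a block. The main test between depots, described below, left this pairing out and took all libraries as independent. The series was made to ask what may make marbling fat form later and more slowly.

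Peripheral nerves run through muscle and fat as bundles of axons, and in such nerves a myelinating Schwann cell wraps 1 stretch of 1 axon. Compact myelin is held together by a small set of abundant proteins, among them myelin basic protein (MBP) and peripheral myelin protein 22 (PMP22), while periaxin (PRX) organises the outer Schwann cell surface. Neurofilaments fill large axons, and the Schwann cells of unmyelinated fibres carry the adhesion molecules NCAM1 and L1CAM and the receptor NGFR. Several of these genes are also active elsewhere: PMP22 in fibroblasts and other connective tissue cells, NCAM1 in muscle satellite cells, NGFR in stromal cells around vessels, SOX10 in pigment cells, and a separate set of transcripts of the MBP gene in immune cells, which counts per gene do not separate.

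Both depots carried adipocyte transcripts. ADIPOQ (adiponectin) measured 743 ± 322 CPM (counts scaled to a fixed library size) in intramuscular and 649 ± 295 CPM in subcutaneous fat, and PLIN1 (perilipin 1, a lipid droplet coat protein) 2140 ± 745 against 2716 ± 769 CPM (SD, n = 5 each). The counts summed to between 9392739 and 14836808 per intramuscular library and between 13776094 and 17685678 per subcutaneous library. Striated muscle transcripts were present in intramuscular fat: the 13 of 66 listed muscle fibre genes with values took 0.122 ± 0.0871% of counts in intramuscular and 0.00570 ± 0.00285% in subcutaneous fat (SD, n = 5 each). Of the 13, 11 were higher by the edgeR test described below, beside 6.75% of all genes tested. The muscle list was chosen with earlier results of these data known, so this count is no independent evidence of a direction. NMRK2, LRRC30, ANO5 and CACNG6 were counted in intramuscular fat alone, so they passed the filter on low counts through that depot only. The other 53 of the 66 listed genes, among them ACTA1, MYH1, CKM and TTN, were not analysed here. The share is therefore not a measure of all muscle RNA in these libraries. In intramuscular replicates 1 to 5 their share was 0.259, 0.0884, 0.155, 0.0497 and 0.0581%. Replicates 1 and 3 were thus the richest in muscle transcripts. The part of muscle, or of the nerves inside it, in the results below was not tested. In whole tissue, fewer cells of a type and less RNA per cell cannot be told apart.

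Of the 8 genes, 5 rose in intramuscular fat and 0 fell at an adjusted p under 0.05 (quasi-likelihood test of edgeR, Benjamini-Hochberg adjusted over 12521 genes). This test did not use the pairing by animal. Of all genes tested 12.2% passed by the same rule, 6.75% higher and 5.49% lower. The counts within the fixed lists below are to be read beside these shares. None of the 8 was lower at an unadjusted p under 0.05 either, or by DESeq2 or limma voom. MBP, PRX, NEFM and NCAM1 rose several-fold and PMP22 by 1.58-fold, while L1CAM, NGFR and SOX10 did not pass. For MBP, PRX, NEFM and NCAM1 the lowest intramuscular library lay above the highest subcutaneous one, as for 7.85% of all genes tested. The authors' deposited table lists 7 of the 8 genes as higher at an adjusted p of 0.05, all but L1CAM, beside 20% of all its genes in either direction and 10.8% higher. That table marks genes as changed only from a 2-fold difference on, and PMP22, at a log2 fold change of 0.67 there, is not marked. The genes were chosen with earlier results of these data known, so these counts are no independent evidence of their direction. NEFM is included in these counts although it passed the filter only through the depot where it was high.

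**Figure D1:**
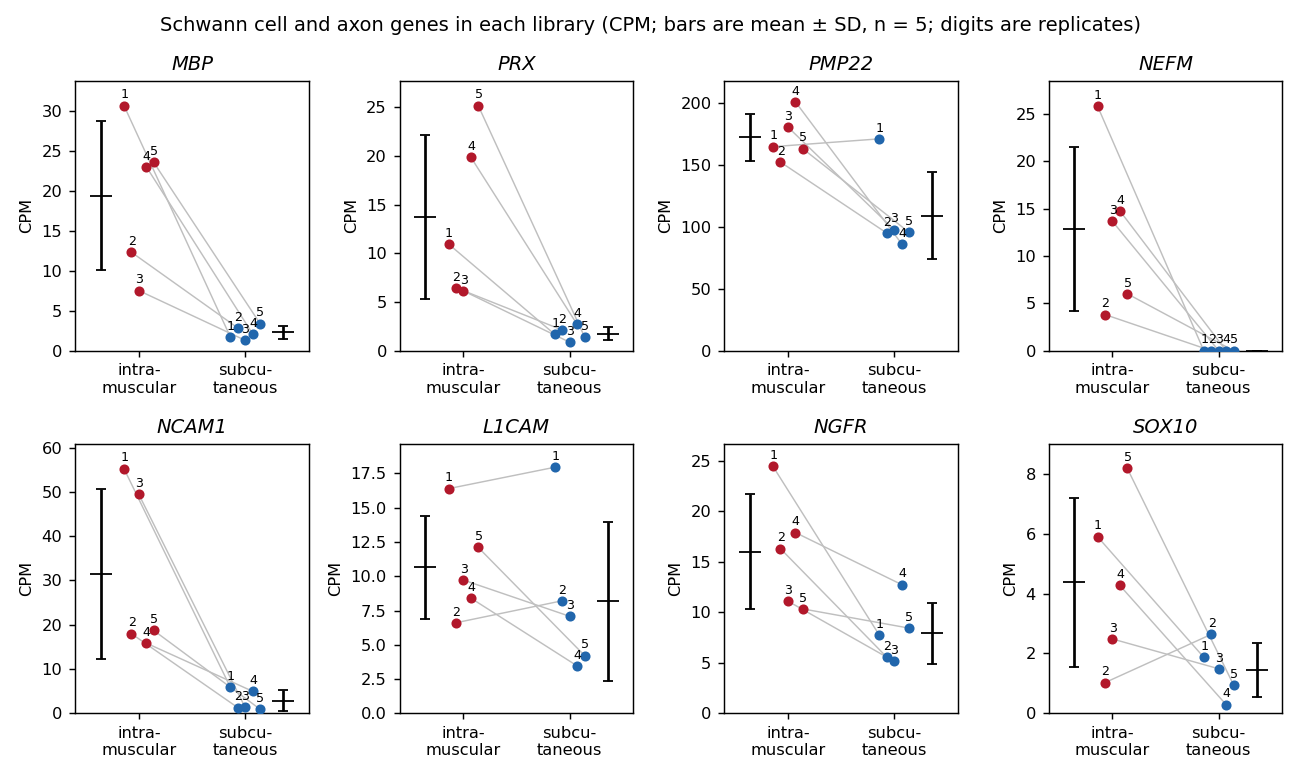
CPM of each of the 8 genes in the 5 intramuscular (red, left) and 5 subcutaneous (blue, right) libraries, with grey lines joining libraries of the same replicate number, digits for the replicate and black bars for the mean ± SD (n = 5). MBP, PRX, NEFM and NCAM1 do not overlap between depots, while PMP22, L1CAM, NGFR and SOX10 do.

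Among the myelin genes, MBP (ENSBTAG00000022890, chromosome 24, 2224463 to 2328579, plus strand) encodes the protein that joins the inner faces of the myelin membrane. It measured 30.7, 12.3, 7.53, 23.0 and 23.6 CPM in intramuscular replicates 1 to 5, against 1.74, 2.86, 1.30, 2.11 and 3.40 CPM in subcutaneous replicates 1 to 5. The lowest intramuscular library, replicate 3, held more than the highest subcutaneous one, replicate 5. The rise was 8.50-fold (log2 fold change 3.09 ± 0.41, ± SE, edgeR adjusted p = 0.000544), and the paired differences ran from 2.06 to 4.04 on the log2 scale, higher in 5 of 5 pairs. Without intramuscular replicates 1 and 3 the log2 fold change was 3.10 (edgeR adjusted p = 0.00103).

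PRX (ENSBTAG00000017333, chromosome 18, 49741504 to 49756355, minus strand), which encodes the Schwann cell scaffold protein periaxin, measured 11, 6.46, 6.14, 19.9 and 25.1 CPM in intramuscular replicates 1 to 5. The subcutaneous values were 1.68, 2.13, 0.869, 2.7 and 1.43 CPM in replicates 1 to 5. Intramuscular replicates 4 and 5, the poorest in muscle transcripts, were the highest, and the depots did not overlap. PRX rose 7.76-fold (log2 fold change 2.96 ± 0.46, ± SE, edgeR adjusted p = 0.00180) and was higher in 5 of 5 pairs. Without intramuscular replicates 1 and 3 its log2 fold change was 3.27 (edgeR adjusted p = 0.00379).

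PMP22 (ENSBTAG00000019070, chromosome 19, 32755609 to 32781362, minus strand), a membrane protein of compact myelin that many connective tissue cells also make, was far the most abundant of the 8. It measured 164, 152, 180, 201 and 163 CPM in intramuscular replicates 1 to 5, against 171, 94.8, 97.5, 86.2 and 95.4 CPM in subcutaneous replicates 1 to 5. Subcutaneous replicate 1 stood among the intramuscular libraries, and the other 4 subcutaneous libraries lay below all 5 of them. The log2 fold change was 0.66 ± 0.20 (± SE, edgeR adjusted p = 0.0450), higher in 4 of 5 pairs. The call was lost in 9 of the 10 fits that left out 1 library (adjusted p 0.0583 to 0.0948), where the log2 fold change was 0.59 to 0.70. Without intramuscular replicates 1 and 3 it was also lost (0.162), at a log2 fold change of 0.66. Only leaving out subcutaneous replicate 1 kept it, at a log2 fold change of 0.88 and an edgeR adjusted p of 0.00275.

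MBP, PRX and PMP22 belong to a fixed list of 18 myelin genes. Of the 15 that are not among the 8, 7 were tested, and 3 were higher and 0 lower (0 lower also at an unadjusted p under 0.05, by DESeq2 and by limma voom). Their median log2 fold change was 3.20, beside -0.04 over all genes tested. PMP2, a lipid carrier of Schwann cells, measured 1.97, 2.57, 3.58, 13.4 and 15.5 CPM in intramuscular replicates 1 to 5, against 0.129, 0, 0, 0.587 and 0 CPM in subcutaneous replicates 1 to 5. Intramuscular replicates 4 and 5 were again the highest, and the depots did not overlap. The log2 fold change of PMP2 was 5.54 ± 1.01 (± SE, edgeR adjusted p = 0.00468). CNP (0.66), CLDN19 (3.20), MAL (0.50) and FA2H (-0.92), with log2 fold changes given in brackets, did not pass. PLLP (plasmolipin) and UGT8, an enzyme of galactolipid synthesis, were removed by the filter on low counts, with 110 and 159 counts over the 5 intramuscular libraries against 0 and 2 over the 5 subcutaneous ones. The other 6 of the list (MAG, GJB1, DRP2, GAL3ST1, NCMAP and CMTM5) were not analysed here. The list summed to 263 to 538 CPM per intramuscular and 141 to 250 CPM per subcutaneous library. Of this, PMP22, which connective tissue cells also make, averaged 172 CPM in intramuscular and 109 CPM in subcutaneous fat. The sum is therefore not a measure of myelin alone.

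NEFM (ENSBTAG00000039530, chromosome 8, 72181225 to 72186700, plus strand) encodes the medium neurofilament chain, a structural protein of axons. It had 276, 52, 187, 218 and 89 counts in intramuscular replicates 1 to 5, and no count in any subcutaneous library. In intramuscular replicates 1 to 5 this came to 25.8, 3.82, 13.7, 14.8 and 6.01 CPM. The highest intramuscular library held 6.77 times the level of the lowest, the widest range after SOX10 among the 8. Against a limit of 3 counts over the 5 subcutaneous libraries (0.0390 CPM, counting error only), NEFM was at least 328-fold higher by the intramuscular mean and at least 97-fold higher in intramuscular replicate 2, the lowest (edgeR adjusted p = 0.000454). Without intramuscular replicate 1, the richest in muscle transcripts, the bound was 245-fold, and without replicates 1 and 3 it was 210-fold.

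Other axon and neuron genes did not move one way. In a fixed list of 26, 9 besides NEFM were tested, and 3 were higher and 2 lower. MAP2 and MAPT, which encode microtubule-binding proteins, and SYN1, which encodes a synaptic vesicle protein, had log2 fold changes of 1.30 ± 0.22, 2.84 ± 0.55 and 2.35 ± 0.58 (± SE, all higher, edgeR adjusted p = 0.00282, 0.00702 and 0.0219). MAPT measured 85.7, 26.4, 45.8, 18.0 and 17.2 CPM in intramuscular replicates 1 to 5, so its highest libraries were those richest in muscle transcripts. NEFH, the heavy neurofilament chain, went the other way from NEFM at 1.09 ± 0.218 CPM in intramuscular fat, against 4.14 ± 3.47 CPM in subcutaneous fat (SD, n = 5 each), with an edgeR adjusted p of 0.0486, or 0.0839 with the animal as a block. TH, tyrosine hydroxylase of sympathetic nerves, measured 2.85 ± 1.66 CPM in intramuscular and 11.2 ± 6.69 CPM in subcutaneous fat (SD, n = 5 each, edgeR adjusted p = 0.0403, or 0.0805 with the animal as a block). Neither of these falls was secure: the call was lost in 8 of 10 fits with 1 library left out for NEFH and 7 of 10 for TH, in both with limma voom, and that of SYN1 was lost in 2 of 10. STMN2 (2.80), UCHL1 (1.43), SCG2 (-2.83) and RBFOX3 (-0.35), with log2 fold changes given in brackets, did not pass. The other 16 genes, among them NEFL, PRPH and TUBB3, were not analysed here.

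Of the adhesion genes, NCAM1 (ENSBTAG00000005710, chromosome 15, 23712341 to 23832796, plus strand) encodes a homophilic adhesion molecule of Schwann cells, axons and muscle satellite cells. It measured 55.2, 18.0, 49.4, 15.9 and 18.7 CPM in intramuscular replicates 1 to 5, against 5.94, 1.32, 1.37, 4.99 and 0.953 CPM in subcutaneous replicates 1 to 5. Intramuscular replicates 1 and 3 stood well above the other 3, and subcutaneous replicates 1 and 4 above the other 3. NCAM1 rose 10.7-fold (log2 fold change 3.42 ± 0.58, ± SE, edgeR adjusted p = 0.00291), with paired differences of 1.64 to 5.04, higher in 5 of 5 pairs. Without replicates 1 and 3 the intramuscular mean was 17.5 ± 1.49 CPM (SD, n = 3) against 2.91 CPM, and the log2 fold change was 2.58 (edgeR adjusted p = 0.0319).

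L1CAM (ENSBTAG00000013462, chromosome X, 37076248 to 37090660, minus strand), an adhesion molecule of axons and non-myelinating Schwann cells, did not show that pattern. It measured 16.4, 6.61, 9.72, 8.40 and 12.1 CPM in intramuscular replicates 1 to 5, against 17.9, 8.21, 7.08, 3.47 and 4.22 CPM in subcutaneous replicates 1 to 5. Animal 1 was the highest in both depots, and the depots overlapped. The log2 fold change was 0.38 ± 0.42 (± SE, edgeR adjusted p = 0.575), higher in 3 of 5 pairs, or 0.89 without subcutaneous replicate 1 (edgeR adjusted p = 0.104).

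In a fixed list of 22 adhesion and node of Ranvier genes, 11 were tested besides NCAM1 and L1CAM, and 2 were higher and 0 lower (0 lower also at an unadjusted p under 0.05, by DESeq2 and by limma voom). Their median log2 fold change was 0.37. ANK3, the ankyrin that anchors sodium channels at nodes, measured 82.3, 24.3, 38.6, 14.9 and 16.1 CPM in intramuscular replicates 1 to 5, against 5.68, 1.25, 0.807, 0.940 and 0 CPM in subcutaneous replicates 1 to 5. It rose by 4.33 ± 0.82 on the log2 scale (± SE, edgeR adjusted p = 0.00611) and was highest in the intramuscular libraries richest in muscle transcripts. EPB41L3, a protein 4.1 of the paranode, rose by 1.40 ± 0.31 (± SE, edgeR adjusted p = 0.0130). NFASC (2.34), CHL1 (0.90), CNTN1 (0.70), CNTNAP1 (-0.44) and CNTN2 (-2.44), with log2 fold changes given in brackets, did not pass. Without intramuscular replicates 1 and 3 neither ANK3 (log2 fold change 3.42) nor EPB41L3 (1.41) passed, and NCAM1 alone of the list did.

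NGFR (ENSBTAG00000020979, chromosome 19, 37093181 to 37112123, minus strand), the low-affinity neurotrophin receptor, lay at the threshold. It measured 24.4, 16.3, 11.1, 17.9 and 10.3 CPM in intramuscular replicates 1 to 5, against 7.74, 5.57, 5.15, 12.7 and 8.44 CPM in subcutaneous replicates 1 to 5. Only subcutaneous replicate 4 reached into the intramuscular range, and the gene was higher in 5 of 5 pairs by 0.29 to 1.64 on the log2 scale. The log2 fold change was 1.01 ± 0.31 (± SE, edgeR adjusted p = 0.0510). With the animal as a block, a fit in which 8.09% of all genes tested were higher, the edgeR adjusted p was 0.0360. It was 0.119 without intramuscular replicate 1 and 0.186 without replicates 1 and 3, at log2 fold changes of 0.81 and 0.90.

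SOX10 (ENSBTAG00000004822, chromosome 5, 109757715 to 109768623, minus strand), the transcription factor that sets Schwann cell identity and drives myelin genes, had the fewest counts of the 8 over all 10 libraries, though NEFM had fewer in subcutaneous fat. It had 63, 14, 34, 63 and 121 counts in intramuscular replicates 1 to 5, against 29, 36, 24, 5 and 14 in subcutaneous replicates 1 to 5. These came to 5.90, 1.03, 2.48, 4.27 and 8.18 CPM in intramuscular fat, against 1.87, 2.64, 1.49, 0.294 and 0.953 CPM in subcutaneous fat. Intramuscular replicate 2 fell below 3 of the subcutaneous libraries, and the gene was higher in 4 of 5 pairs. The log2 fold change was 1.59 ± 0.62 (± SE, edgeR adjusted p = 0.105, or 0.0445 by DESeq2, by which 10.6% of all genes tested were higher).

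Schwann cell regulators and receptors beyond NGFR and SOX10 were mixed. In a fixed list of 22, 11 others were tested, and 3 were higher and 1 lower. ART3, an ADP-ribosyltransferase family member, rose to 12.8 ± 7.71 CPM in intramuscular fat, against 0.0586 ± 0.131 CPM in subcutaneous fat, where 4 counts in replicate 2 were all there was (SD, n = 5, edgeR adjusted p = 0.000529). Its intramuscular values in replicates 1 to 5 were 18.3, 16.1, 19.7, 1.15 and 8.99 CPM, highest in the libraries richest in muscle transcripts and lowest in the poorest. SCN7A, a sodium channel of non-myelinating Schwann cells, rose with a log2 fold change of 2.45 ± 0.56 (± SE, edgeR adjusted p = 0.0158). S100B, a Schwann cell marker that adipocytes also make, fell by 1.46 on the log2 scale (edgeR adjusted p = 0.0167). It measured 329 ± 117 CPM in intramuscular and 908 ± 401 CPM in subcutaneous fat (SD, n = 5 each), and the depots did not overlap. The regulator list, in which S100B was the most abundant gene, summed to 336 to 600 CPM per intramuscular and 627 to 1447 CPM per subcutaneous library. ERBB3, the neuregulin receptor of Schwann cells, had a log2 fold change of 1.21 ± 0.50 (± SE, edgeR adjusted p = 0.126). Among 25 neurotrophic ligands and receptors, 15 were tested besides NGFR, and 1, the neurotrophin 3 receptor gene NTRK3, was higher and 0 were lower by edgeR (1 at an unadjusted p under 0.05, 1 by DESeq2 and 0 by limma voom). That count is near the share of all genes tested that were higher, 6.75%. NTRK3 measured 57.3, 33.3, 33.8, 28.8 and 16.2 CPM in intramuscular replicates 1 to 5, against 13.1, 10.0, 3.10, 2.11 and 1.02 CPM in subcutaneous replicates 1 to 5 (log2 fold change 2.53 ± 0.59, ± SE, edgeR adjusted p = 0.0168). EGR2, CDH19 and 6 others of the regulator list were not analysed here.

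**Figure D2:**
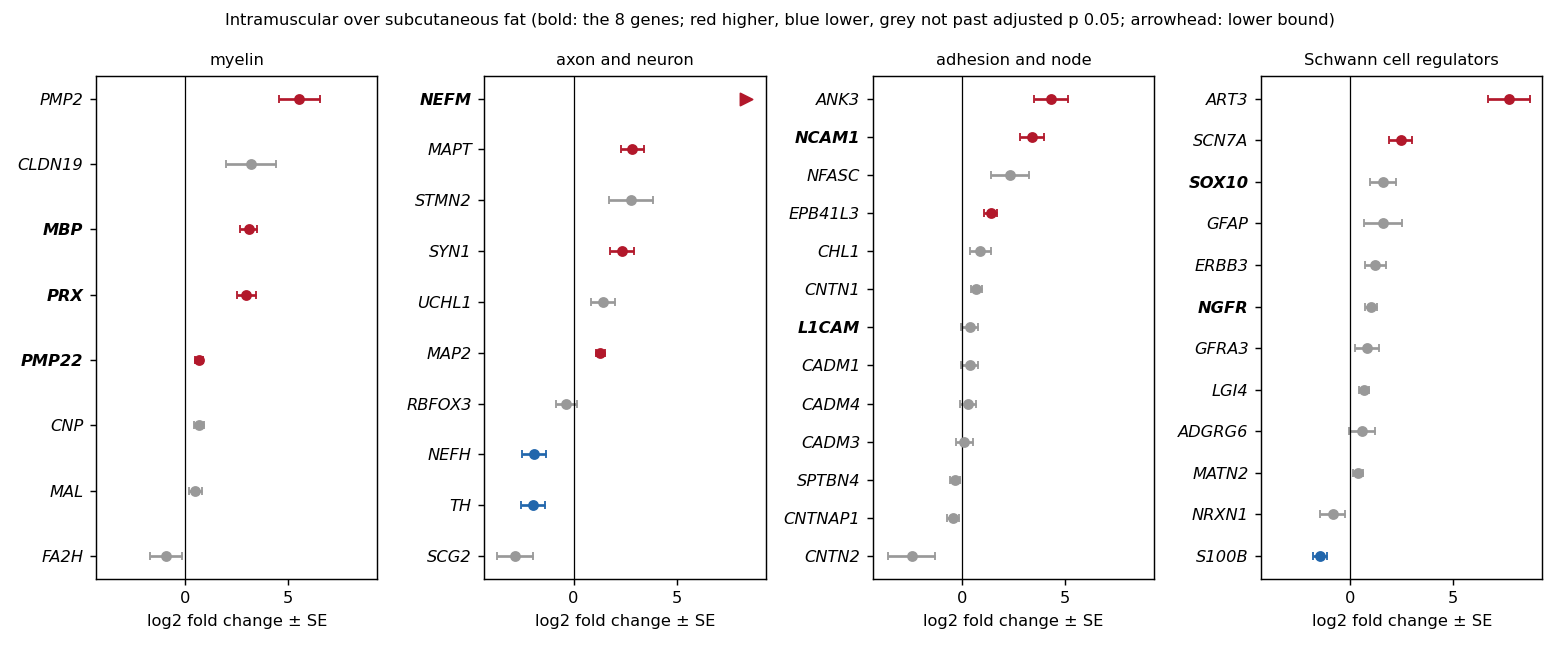
Log2 fold change (intramuscular over subcutaneous fat, ± SE) of tested genes of the fixed myelin, axon and neuron, adhesion and node, and Schwann cell regulator lists, with the 8 genes in bold, red for higher, blue for lower and grey for genes not past an adjusted p of 0.05. The arrowhead of NEFM is its lower bound, since no subcutaneous library held a count. All myelin genes drawn but FA2H lie right of 0, while the axon list holds genes on both sides.

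Per length of gene, the order of the 8 differed between the depots. In intramuscular fat PMP22 led at 95.0 ± 10.4 CPM per kilobase, followed by MBP (6.78 ± 3.26), NCAM1 (5.73 ± 3.50), NGFR (4.72 ± 1.69), NEFM (3.87 ± 2.62), PRX (3.04 ± 1.88), L1CAM (1.90 ± 0.675) and SOX10 (1.46 ± 0.940), each in CPM per kilobase (SD, n = 5). In subcutaneous fat the order of mean levels was PMP22 (60.2 ± 19.2), NGFR (2.34 ± 0.894), L1CAM (1.46 ± 1.04), MBP (0.797 ± 0.295), NCAM1 (0.531 ± 0.430), SOX10 (0.485 ± 0.298), PRX (0.391 ± 0.154) and NEFM (0), each in CPM per kilobase (SD, n = 5). PMP22 stood apart from the rest in both depots. Neighbours below it overlapped within each depot, apart from NEFM in subcutaneous fat, which was at 0.

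**Figure D3:**
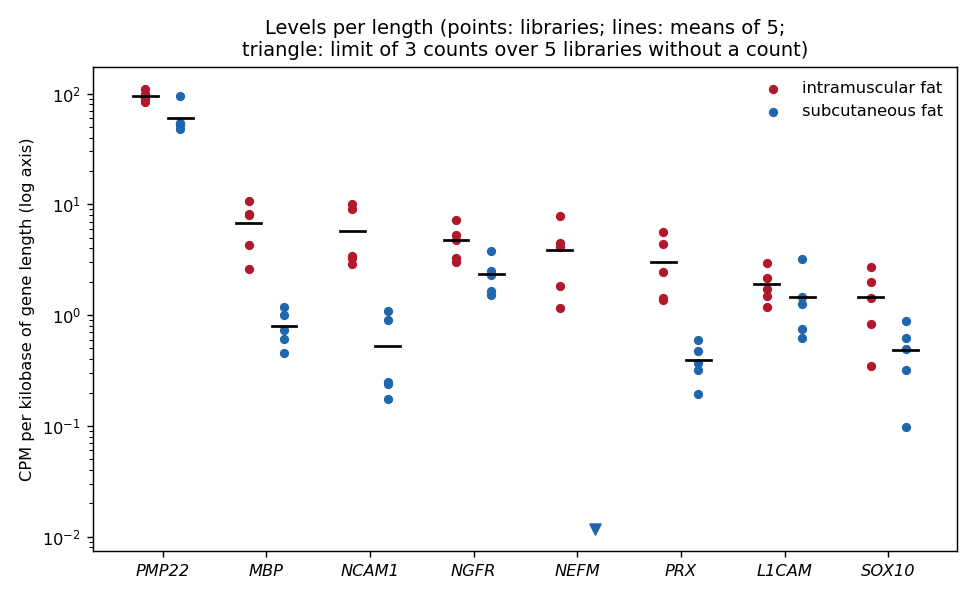
Level of each gene in CPM per kilobase of gene length on a log axis, with 1 point per library, lines for the mean of 5, intramuscular fat in red and subcutaneous fat in blue. The triangle marks the limit of 3 counts over 5 libraries for NEFM in subcutaneous fat, and PMP22 lies above every other gene in both depots.

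Ratios between the genes within a library, which depth cannot shift, were compared for 21 pairs of the 7 genes with subcutaneous counts (two-sided exact permutation test on log2 ratios, 5 against 5 libraries, smallest possible p = 0.00794, Benjamini-Hochberg adjustment over the 21). In 8 pairs the ratio differed between depots at an adjusted p under 0.05. This test takes the 10 libraries as independent, although they come from 5 animals. A paired exact test over 5 animals cannot go below p = 0.0625, which each of the 8 reached, with 5 of 5 animals in 1 direction. The ratios rest on the same values as the fold changes above, in genes chosen with earlier results known. They describe how these fold changes differ and are no further evidence for them. MBP stood 3.30 ± 0.83 below PMP22 in intramuscular and 5.52 ± 0.75 below it in subcutaneous fat on the log2 scale (mean and SD, n = 5 each), a difference of 2.22 (exact p = 0.00794, adjusted p = 0.0238). The same test gave differences of 2.02 for PRX over PMP22 and -2.82 for PMP22 over NCAM1, each at the same adjusted p from the exact test. NCAM1 and L1CAM, both adhesion genes, parted by 2.97 on the log2 scale, with NCAM1 higher than L1CAM by 1.41 ± 0.68 in intramuscular and lower by 1.57 ± 1.21 in subcutaneous fat (SD, n = 5 each, exact adjusted p = 0.0238). MBP over L1CAM had a difference of 2.37 (exact adjusted p = 0.0417), and MBP, PRX and NCAM1 over NGFR 1.92, 1.72 and 2.52 (exact adjusted p = 0.0238 for each). MBP and PRX kept a ratio of 0.56 ± 0.63 in intramuscular and 0.36 ± 0.56 in subcutaneous fat (log2, SD, n = 5 each, exact adjusted p = 0.683), which does not show that they moved alike. The number of pairs past the threshold was 4 without subcutaneous replicate 1 and 4 without subcutaneous replicate 3.

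Across the 5 intramuscular libraries the genes did not share 1 order. PRX and PMP2 were highest in replicates 5 and 4, the libraries poorest in muscle transcripts, and SOX10 in replicate 5. NEFM, NCAM1, MBP, NGFR and L1CAM were highest in replicate 1, the library richest in muscle transcripts, and NCAM1 was second highest in replicate 3, the next richest. MBP was lowest in that replicate 3, at 7.53 CPM. NEFM was second highest in replicate 4, the poorest in muscle transcripts, at 14.8 CPM against 13.7 CPM in replicate 3. PMP22 hardly varied, with a coefficient of variation of 11% beside 48.1% for MBP, 61.7% for PRX, 61.1% for NCAM1 and 67.7% for NEFM over the 5 intramuscular libraries.

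**Figure D4:**
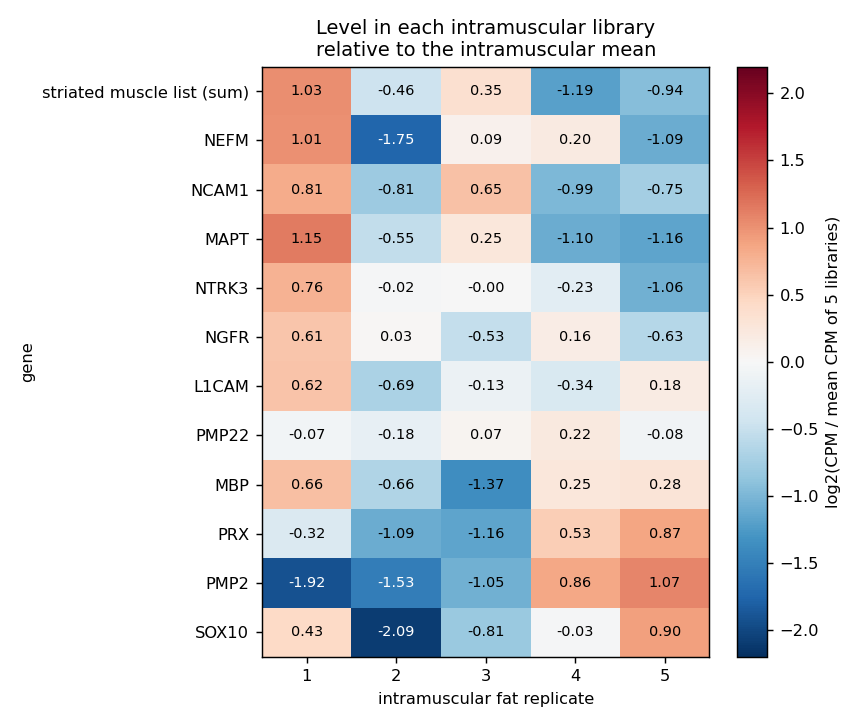
Log2 of CPM in each intramuscular library over the mean of the 5, for the 8 genes, for PMP2, MAPT and NTRK3 (picked after their values were seen) and, in the top row, for the sum of the striated muscle list. NEFM, NCAM1, MBP, NGFR, L1CAM, MAPT and NTRK3 are highest in replicate 1 with the muscle list, while PRX and PMP2 are highest in replicates 4 and 5. NEFM is second highest in replicate 4, where the muscle list is lowest.

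Without replicates 1 and 3, MBP, PRX, NEFM and NCAM1 were the 4 of the 8 genes past the threshold, in a fit in which 2.43% of all genes tested were higher. The intramuscular libraries kept in that fit held 0.0497 to 0.0884% muscle transcripts, against at most 0.0101% in a subcutaneous library. Depot and muscle transcripts therefore cannot be told apart in that fit. Of the other list genes named above, PMP2, MAP2 and ART3 also passed there. The calls of ANK3, EPB41L3, MAPT, SYN1, NTRK3, SCN7A, S100B, NEFH and TH were lost (edgeR adjusted p 0.0608 to 0.216), in a fit with fewer libraries. Their log2 fold changes kept their direction there. Those of EPB41L3 (1.41), SCN7A (2.52), NEFH (-1.87), TH (-1.66), S100B (-1.22) and NTRK3 (2.17) lay within 1 SE of the values with all libraries, and those of ANK3 (3.42), MAPT (1.95) and SYN1 (1.73) were smaller by more than that. Markers of cells that share these genes were read beside them. With all libraries 6.75% of all genes tested were higher and 5.49% lower by edgeR, and the marker counts are to be read beside these shares. Of 11 satellite cell markers 6 were tested, with NCAM1 higher and VCAM1, which endothelium also makes, lower. The other 4 had log2 fold changes above 0 that did not pass, the nearest SDC4 at 92.9 CPM in intramuscular and 46.0 CPM in subcutaneous fat (edgeR adjusted p = 0.0549). By DESeq2, with library totals, with the animal as a block and without intramuscular replicates 1 and 3, 2 of the 6 were higher. The list summed to 260 to 378 CPM per intramuscular and 254 to 564 CPM per subcutaneous library, of which VCAM1 averaged 163 CPM in intramuscular and 334 CPM in subcutaneous fat. CDH15, the satellite cell cadherin, measured 16.9 CPM in intramuscular and 8.53 CPM in subcutaneous fat on average (edgeR adjusted p = 0.175), and PAX7, MYF5 and MYOD1 were not analysed here. Of 13 postsynaptic genes of the neuromuscular junction 9 were tested, and LRP4, the agrin receptor, was higher (log2 fold change 1.99 ± 0.57, ± SE, edgeR adjusted p = 0.0384, lost in 7 of 10 fits with 1 library left out) and 0 were lower (0 also at an unadjusted p under 0.05, by DESeq2 and by limma voom). They summed to 193 to 370 CPM per intramuscular and 166 to 306 CPM per subcutaneous library. Of 8 melanocyte markers, which share SOX10, 5 were tested, with 0 higher by edgeR (1 at an unadjusted p under 0.05, 1 by DESeq2 and 0 by limma voom) and KIT, which mast cells also make, lower. They summed to 22.0 to 36.2 CPM per intramuscular and 21.4 to 51.2 CPM per subcutaneous library. Of 11 perineurial and endoneurial fibroblast genes 6 were tested, with 0 higher and 0 lower by edgeR (0 also at an unadjusted p under 0.05, by DESeq2 and by limma voom, but 1 higher with no filter on low counts). CLDN1, a tight junction gene removed by that filter, had 127 counts over the intramuscular and 12 over the subcutaneous libraries. The list summed to 155 to 274 CPM per intramuscular and 141 to 329 CPM per subcutaneous library. All 10 endothelial markers were tested, with 3 lower by edgeR (ROBO4, CLDN5 and EGFL7), 5 at an unadjusted p under 0.05, 4 by DESeq2 and 3 by limma voom, and 0 higher by each of these. They summed to 1837 to 2367 CPM per intramuscular and 2318 to 4299 CPM per subcutaneous library. Without intramuscular replicates 1 and 3 the calls of VCAM1, LRP4, KIT, CLDN5 and EGFL7 were lost (edgeR adjusted p 0.0904 to 0.196), at log2 fold changes of -0.89 for VCAM1, 1.72 for LRP4, -0.99 for KIT, -1.30 for CLDN5 and -0.98 for EGFL7, against -1.04, 1.99, -1.13, -1.36 and -1.16 with all libraries. That of ROBO4 held. The part of these cells in the results was not tested.

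The genes whose levels ran most like those of each of the 8 over the 10 libraries were found by the root mean square difference of log2 CPM after each gene's own mean was taken away, among 12251 genes of at least 1 CPM. SCN7A, the Schwann cell sodium channel, was closest to MBP, with a difference of 0.48 beside an SD of 1.67 for MBP itself. Next to it came the potassium channel subunit gene ABCC8 (0.55) and ENHO (0.56), which encodes the peptide adropin. For SOX10, SHISA3 (0.65) and ERBB3 (0.68) were among the closest 3, beside an SD of 1.27. PRX had HTR2A (0.48), a serotonin receptor gene, FAM129A (0.55) and PTPRU (0.60) nearest, beside an SD of 1.6. For NEFM they were ANGPTL7 (0.47), HSPB7 (0.74), a small heat shock protein of heart and skeletal muscle, and MYADML2 (0.77), beside an SD of 3.37. NCAM1 lay closest to PTGFR (0.56), a prostaglandin receptor gene, OTUD1 (0.58) and KLHL38 (0.60), beside an SD of 2.09. PMP22 lay closest to FOXP1, RSF1 and HNRNPH1 at 0.16 to 0.19, NGFR to FHOD1, RHOBTB2 and CEMIP2 at 0.27 to 0.30, and L1CAM to HOXD3, SPATA9 and KCTD17 at 0.34. HSPB7 measured 310 ± 273 CPM in intramuscular and 2.77 ± 1.30 CPM in subcutaneous fat (SD, n = 5 each). These distances describe likeness over 10 libraries from 5 animals and were not tested.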

How the data were processed

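RNA of 5 intramuscular and 5 subcutaneous fat samples was sequenced in pairs after dUTP second-strand marking, per the labels' protocols. The submitters' processing notes name DESeq2 1.42.0, featureCounts 2.0.2, STAR 2.7.11a and Trimmomatic 0.39. The sources used here name neither genome build nor strand setting, and coordinates are those of the deposited table. No listed gene overlaps any of the 8.

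The authors deposited raw counts per gene and library, with gene length, mean counts per depot and base mean (both read as signal, the base mean after size factors), log2 fold change, test score, p-value and adjusted p-value. Their table marks genes as changed from a 2-fold difference on.

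CPM used edgeR's TMM-scaled library sizes, and CPM per kilobase the deposited gene length. The main test was edgeR 4.0.16's two-sided quasi-likelihood test (R 4.3.3, filterByExpr, depot only, Benjamini-Hochberg at 0.05), which removed 153 genes. The SE is the log2 fold change over the root of F. Log2 CPM used a prior count of 2. Tested on simulated counts (12365 genes, 195 changed), 41.4% of 2-fold and 87.5% of 4-fold changes were called, and 4.58% of calls were unchanged genes. The simulation changed far fewer genes than the 1533 called in the data and drew all libraries as independent, so its rates need not hold here.

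The series' text says that both depots came from 5 heifers. Deviations of same-numbered libraries from depot means correlated across genes at 0.102 to 0.237. Each was above the values of its own 2 libraries with other numbers, for replicate 1 only narrowly (0.102 against at most 0.0945). The value of replicate 1 lay below the highest between unlike numbers (0.114). Numbers were taken as pairs, with the weakest ground for replicate 1. No 2 libraries were identical. Named genes were the 8, up to 4 called genes of smallest p per list and direction, markers at 0, and the 3 most alike per gene; some genes that this rule or a list holds are not reported here and are not drawn. The members and lists, including the muscle list, were chosen with earlier results of these data known. Alternatives were DESeq2, RLE scaling, library totals, no filter, limma 3.58.1's voom, an animal block, each library left out, and intramuscular replicates 1 and 3 left out. The limit of 3 counts covers counting error only.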

Additional observations from a re-analysis of the deposited data

Results flagged for a closer look

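A library counted as standing apart where its gap to the nearest of the other 4 exceeded 0.71 of the depot's range (Dixon's 95% value for 5 samples). Chance gives this in about 1 group in 20 where values are normally distributed. CPM need not be, least of all in groups mostly at 0, so the rule only flags libraries. Of 62 gene and depot groups checked, 7 had such a library. PMP22 measured 171 CPM in subcutaneous replicate 1, against 86.2 to 97.5 CPM in the other subcutaneous libraries, and this library alone made its depots overlap. The same library was the highest of its depot for the ankyrin gene ANK3, at 5.68 CPM against 0 to 1.25 CPM in the others. Subcutaneous replicate 5 was high for the Schwann cell channel gene SCN7A (1.57 CPM, 23 counts, against 0.258 to 0.513 CPM) and for the muscle gene XIRP1 (0.817 CPM, 12 counts, against 0 to 0.129 CPM). The Schwann cell lipid carrier gene PMP2 had 0.587 CPM (10 counts) in subcutaneous replicate 4 and at most 0.129 CPM in the others. ART3 had 0.293 CPM in subcutaneous replicate 2, from 4 counts, and 0 in the others. The endothelial gene CLDN5 measured 260 CPM in intramuscular replicate 2, against 147 to 174 CPM in the other intramuscular libraries.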

How the results depend on the processing

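MBP, PRX, NEFM and NCAM1 passed the threshold under all 17 alternatives tried, with log2 fold changes of 2.87 to 3.29 for MBP, 2.62 to 3.27 for PRX and 2.58 to 3.84 for NCAM1. None of the 8 genes changed sign. L1CAM passed under 0 of the 17, SOX10 under 1 (DESeq2), NGFR under 5 (DESeq2, library totals, the animal block, and without intramuscular replicate 5 or subcutaneous replicate 4) and PMP22 under 7. The number of the 8 genes higher was 4 to 5 with 1 library left out and 7 by DESeq2. It was 6 in the fit blocked on the animal and 4 without intramuscular replicates 1 and 3, and 0 were lower under each. Of all genes tested 10.6% were higher by DESeq2, 8.09% with the block and 2.43% without those replicates. With the animal as a block 1884 of all genes passed, against 1533 without it, and of the 8 genes NGFR alone gained the call, and none lost it. Of the other named genes NEFH and TH lost it. Over all genes 2482 passed by DESeq2 and 373 without intramuscular replicates 1 and 3, and 757 to 1895 with 1 library left out. Library totals in place of TMM moved the median log2 fold change of all genes by more than 0.1, to 0.13 against -0.04, and gave 1149 higher and 330 lower, against 845 and 688. Of the ratio comparisons between the genes, 4 to 9 of 21 passed with 1 library left out and 8 with a prior count of 0.5, alternatives chosen after seeing the data, as was a paired exact test over 5 animals, which cannot reach 0.05. Of the 24 genes found most alike, 24 stood with RLE scaling, 23 with library totals and 18 with a prior count of 0.5. SOX10 rests on 5 counts in its lowest library, which limits the precision of its fold change.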
